A study of Mus musculus with 148 samples.

Results

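The comparison covers lymphocytes from 2 kinds of lung tissue of the same mice: metastases of the EO771 mammary carcinoma line, and distal normal tissue from lung sections in which no tumor signal was seen. The animals were female PA-GFP C57BL/6 mice, which carry a photoactivatable green fluorescent protein. At 8 weeks of age they received EO771-tdTomato cells in a mammary gland, the primary tumor was resected 3 weeks later, and lungs were taken once metastases were seen on imaging. Metastatic and distal sections were told apart by the red fluorescence of the tumor cells, so a distal section may still hold tumor cells that had lost or barely showed the marker. From both, CD31-CD45+ cells were sorted into plates without photoactivation and sequenced one by one with molecular identifiers (UMIs).

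All wells whose deposited annotation begins with T_ or NK_ were taken from the 29 metastasis plates (13 mice) and the 28 distal normal plates (14 mice). These were 2034 cells of the 24020 annotated cells of the whole series. Of the T cells, 808 came from distal tissue and 668 from metastases, and of the NK cells 295 and 263. Their UMIs were summed per mouse and tissue, since cells of one lung are not replicates, and each sum needed at least 10 cells in both tissues of a mouse. Mouse 17 had no metastasis plate and mouse 24 had too few distal T cells. That left 12 mice for T cells, 5 for NK cells, 5 for the CD8 Gzmk subset, 6 for the CD4 Lef1 subset and 5 for the NK Ncr1 subset. As an outside reference, T and NK cells of 3 control lungs were summed in the same way (1174 cells). The control lungs were all sequenced in a batch of their own, so that batch and the absence of a tumor cannot be told apart.

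T cells recognise antigen through a receptor built of CD3 chains and clonal alpha and beta chains, and recirculate between blood and lymph nodes while naive. On antigen contact they lose the homing program and gain cytokines, granule proteins and costimulatory receptors. Regulatory T cells (Treg) hold other lymphocytes in check, and exhausted CD8 T cells carry inhibitory receptors such as LAG-3. NK cells kill without an antigen receptor, using perforin and granzymes, and are a large part of the lymphocytes of the mouse lung.

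The defining markers had UMIs in the sums named for them. The annotation was made from the same cells' transcripts, so this is no separate check of it. All 8 T cell markers (Cd3d, Cd3e, Cd3g, Trac, Trbc1, Trbc2, Cd5 and Bcl11b) had UMIs in the T sums of both tissues, and all 7 NK markers in the NK sums. Ncr1 held 412 UMIs in distal and 166 in metastatic NK cells against 58 and 16 in T cells. Of the T cell UMIs, 52 distal (45 in mouse 36) and 4 metastatic ones were in CD8 Gzmk cells of 5 mice. Depth was uneven. T cell sums held from 7326 to 948909 UMIs, and the distal sample of mouse 36 alone held 72.2% of all distal T cell UMIs. The median UMIs per T cell of a sample reached 2882 in distal tissue and 1205 in metastasis, with a middle value of 692 and 699 over the 12 mice, and was higher in metastasis in 4 of 12 mice. Mitochondrial transcripts made up 2.57% to 4.47% of distal and 2.49% to 4.16% of metastatic T cell UMIs. Below, CPM stands for UMIs of a gene per 1000000 UMIs of a sum, and a gene was called when its adjusted p in edgeR's quasi-likelihood test, with the mouse as a block, was under 0.05.

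In T cells, 1 gene differed between the tissues, and it was higher in metastasis. Lgals1 (chr15:78926725-78930465 in mm10, plus strand, protein coding) encodes galectin-1, a secreted lectin that binds cell-surface glycans and is abundant in activated T cells. In distal T cells its lowest, median and highest levels over 12 mice were 382, 1308 and 3997 CPM. In metastatic T cells they were 779, 2245 and 6045 CPM. The ranges overlapped, but within mice the metastatic sample was the higher one in 10 of 12, the exceptions being mice 23 and 30, whose distal samples had the highest levels of all distal samples. The log2 fold change was 0.96 ± 0.22 (SE, n = 12 mice), with an adjusted p of 0.0445 in edgeR. An exact sign-flip test over the 12 mice, on log2 of CPM + 10 and two-sided, gave p = 0.0083. It used the same samples by which Lgals1 was picked and was not adjusted, so it is no separate support. The 3 control lungs had 1780, 1073 and 1378 CPM, within the ranges of both tissues.

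Lgals1 was the only gene called of 370 that passed the filter on low counts, which is 0.27% of them, and 42 genes had an unadjusted p under 0.05. The call is near the threshold. It was kept without mouse 23 or mouse 30 and lost when any one of mice 25, 26, 27, 28, 31, 32, 33, 34, 36 and 37 was left out, with adjusted p-values from 0.00155 to 0.268 and log2 fold changes from 0.77 to 1.09. Cells carrying 5 or more UMIs of monocyte, macrophage, neutrophil, dendritic or B cell markers made up 174 of 728 distal and 125 of 626 metastatic T cells, while the median over mice was 6.10% and 14.7%. With those cells left out the log2 fold change of Lgals1 was 0.56 (adjusted p = 0.501, edgeR, 11 mice). The cut is a fixed number of UMIs per cell, which cells with many UMIs meet more easily. It can therefore also remove deep cells, and the part of depth was not tested.

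**Figure D1:**
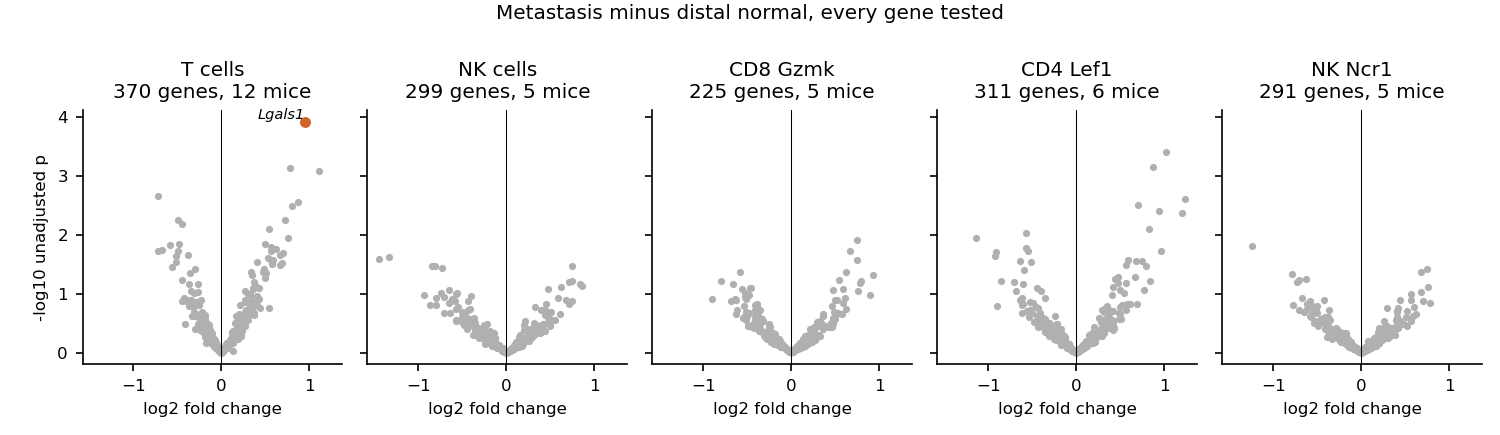
Log2 fold change of metastasis minus distal normal (horizontal axis) against −log10 of the unadjusted p (vertical axis) for every gene tested in each of the 5 lymphocyte sums; the colored point is a gene with an adjusted p under 0.05. Lgals1 in T cells, at a log2 fold change of 0.96, is the only colored point.

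The 6 genes next in order of p did not pass. Myl12a, a regulatory light chain of non-muscle myosin, had a log2 fold change of 0.78 ± 0.21 and was higher in 10 of 12 mice (adjusted p = 0.103, edgeR). Aldoa, the glycolytic aldolase, had 0.81 ± 0.25 and was higher in 10 of 12 (adjusted p = 0.202). Cox6a1, a subunit of cytochrome c oxidase, had 0.73 ± 0.24 and was higher in 8 of 12 (adjusted p = 0.257). The remaining 3, Gm8203, Gm20568 and AY036118, are 2 processed pseudogenes and a transcript inside a ribosomal RNA locus, whose reads can come from near-identical copies. Their values are therefore uncertain.

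Many genes of T cell biology were too thinly counted for that filter. A looser one, chosen after seeing how few genes were left, kept the 7859 genes with at least 30 UMIs over the T cell samples. Here 5 genes were called (0.0636%), all higher in metastasis, and 211 had an unadjusted p under 0.05. With no filter the same 5 were called of 19248 genes (0.026%). They were Tnfrsf4 and Tnfrsf9, costimulatory receptors of the TNF receptor family carried by Treg and recently activated T cells, Capg, an actin-capping protein, and the chemokine genes Ccl4 and Ccl1. Lgals1 was not called among these larger sets of genes (adjusted p = 0.213 with at least 30 UMIs).

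Tnfrsf4 (chr4:156013843-156016612, plus strand) held few UMIs in distal T cells, 5 in all, in mice 23, 28 and 36, and 152 in metastatic ones, in 10 of 12 mice. Its median was 190 CPM in metastasis, where mouse 23 reached 1911 and mouse 26 reached 937, and no mouse was higher in distal tissue. The metastatic sums of mice 23 and 26 were small, with 12 and 14 T cells and 7326 and 11745 UMIs, so these levels rest on few UMIs. The log2 fold change was 5.22 ± 0.73 (adjusted p = 6.83e-09, edgeR), and it stayed called whichever mouse was left out. The control lungs had 12.9, 0 and 24.4 CPM. Tnfrsf9 (chr4:150914562-150946102, plus strand) held 19 distal and 140 metastatic UMIs and was higher in metastasis in 10 of 12 mice, with a log2 fold change of 2.91 ± 0.63 (adjusted p = 0.00679, edgeR). Its call was lost without mouse 26, 28, 31 or 36, with adjusted p-values up to 0.303, and over the 9 mice whose tissues share sequencing batches (adjusted p = 0.278). Both genes, and Ccl1, reached 30 UMIs only through the metastatic samples, where they were high, so entering the test already favoured a call, and their adjusted p-values are given as a description.

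Capg (chr6:72544391-72562983, plus strand) had lowest, median and highest levels of 0, 46.3 and 145 CPM in distal T cells and of 0, 288 and 584 CPM in metastatic ones. It was higher in metastasis in 10 of 12 mice, the exceptions being mice 23 and 34. The log2 fold change was 2.26 ± 0.46 (adjusted p = 0.00271, edgeR) and the call held without any one mouse. The control lungs, at 38.7, 37.4 and 32.5 CPM, lay within the ranges of both tissues.

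Both chemokine genes had many of their UMIs in mouse 26. Ccl4 (chr11:83662584-83664683) held 130 distal and 350 metastatic UMIs, of which 176 were in mouse 26. Ccl1 held 4 distal UMIs, all in mouse 27, and 157 metastatic ones, of which 129 were in mouse 26. A single CD8 Lag3 cell of that mouse held 122 UMIs of Ccl1, and another such cell of mouse 26 held 143 UMIs of Ccl4. Ccl4 was also present in other cells, in 16 CD8 Lag3 cells of 9 mice in all. Over all 12 mice the log2 fold changes were 1.78 ± 0.37 for Ccl4 (adjusted p = 0.00328) and 4.64 for Ccl1 (adjusted p = 5.55e-06, both edgeR). Without mouse 26 they were 1.30 and 2.98 and neither was called (adjusted p = 1.00 for both). The p of Ccl1 carries the limit given for Tnfrsf4, since it too reached 30 UMIs through the metastatic samples. Without mouse 27, which held the distal UMIs of Ccl1, its log2 fold change was 6.42, so the size of its change was not well determined.

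**Figure D2:**
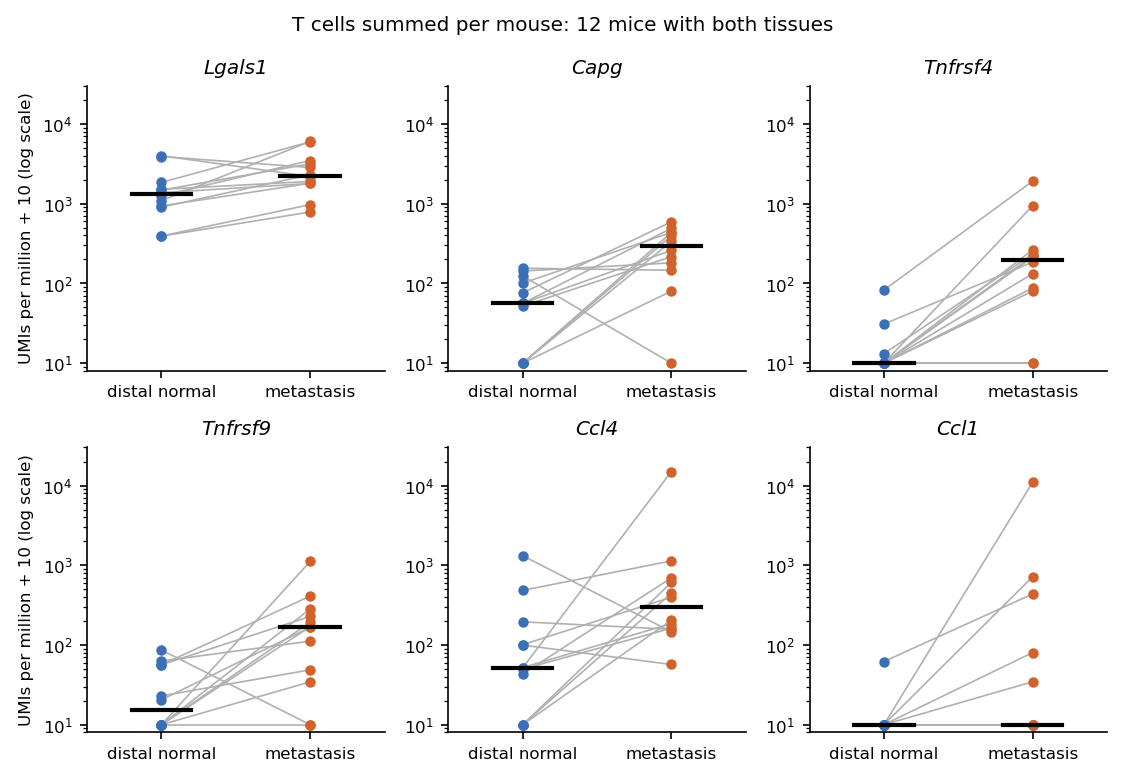
Level of 6 genes in the T cells of each mouse, as CPM + 10 on a log scale, in distal normal tissue and in metastasis; grey lines join the 2 tissues of a mouse (12 mice) and black bars are medians. Lgals1 is higher in metastasis in 10 mice, Tnfrsf4 has medians of 0 and 190 CPM, and the highest points of Ccl4 (14985 CPM) and Ccl1 (10983 CPM) are both mouse 26.

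A sum over all T cells also follows which T cells it holds, and in such sums a larger share of a subset and more transcripts per cell cannot be told apart. The deposited subsets were not present in equal shares. CD4 Lef1 cells, named for a transcription factor of resting T cells, were a median of 52.0% of distal and 36.2% of metastatic T cells and were the smaller share in metastasis in 9 of 12 mice. CD8 Lag3 cells were a median of 0.495% and 6.67% and were the larger share in metastasis in 10 of 12. Some shares rest on few cells, since samples held as few as 11 distal and 12 metastatic T cells. In mouse 36, counted among the 10 and with the most T cells (292 and 156), the share was 3.08% and 3.21%. Cells annotated as Treg were 1 of 728 distal and 25 of 626 metastatic T cells, the latter in 8 mice. Of these 25, 7 cells of 4 mice held UMIs of Foxp3, the lineage factor of Treg (44 UMIs). The distal Foxp3 UMIs lay in other subsets, 2 in CD4 Lef1, 6 in CD4 S100a4, 4 in CD8 Dapl1 and 1 in CD8 Gzmk cells. In metastasis CD4 Lef1 and CD4 S100a4 cells held 3 each. The Treg share thus follows the annotation, and no absence of Treg from distal tissue is read from it. CD8 Gzmk cells had medians of 26.3% and 26.0%. Exact two-sided sign-flip tests of the share differences over the 12 mice gave p = 0.00684 for CD8 Lag3 cells, 0.00781 for Treg and 0.0347 for CD4 Lef1 cells, and p = 0.0273, 0.0273 and 0.0809 when adjusted over the 7 subsets. The subsets were defined by genes that are themselves compared, so these shares are not independent of the gene results.

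**Figure D3:**
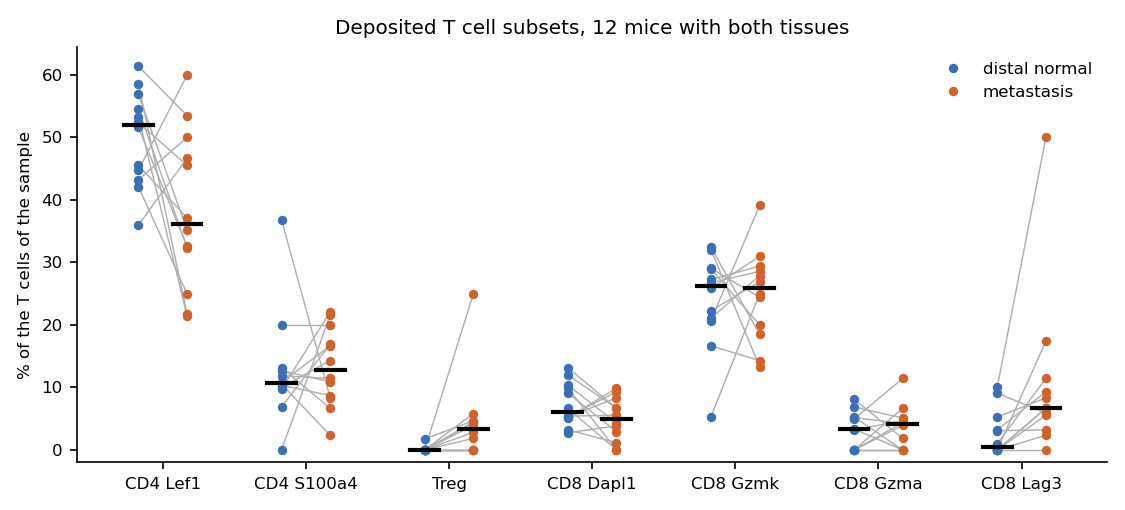
Share of each deposited T cell subset among the T cells of a sample (percent), distal normal in blue and metastasis in orange, lines joining the 2 tissues of each of 12 mice and black bars giving medians. The median share of CD4 Lef1 cells is 52.0% in distal tissue and 36.2% in metastasis, and that of CD8 Lag3 cells 0.495% and 6.67%.

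The genes fell into 2 kinds by where their UMIs lay. Of the 152 metastatic UMIs of Tnfrsf4, 125 were in Treg, in 19 of 25 cells and 7 mice, and 13 in CD8 Lag3 cells, 11 of them in 1 cell. Of the 140 of Tnfrsf9, 79 were in Treg and 40 in CD8 Lag3 cells. Ccl4 and Ccl1 lay in CD8 Lag3 cells, with 299 and 154 UMIs. Lgals1 and Capg were spread over more subsets. Pooled over mice, Lgals1 stood at 210 CPM in distal and 180 CPM in metastatic CD4 Lef1 cells, at 3295 and 3248 CPM in CD4 S100a4 cells, at 1446 and 2442 CPM in CD8 Gzmk cells and at 8380 and 6735 CPM in CD8 Lag3 cells. In CD4 Lef1 cells mouse 36 held 79.7% of the distal and 43.6% of the metastatic UMIs of the mice tested, and the levels per mouse ran the other way from the pooled ones, with medians of 102 and 200 CPM over 6 mice, higher in metastasis in 3 and lower in 3. Capg, pooled over mice in the 5 subsets with Capg UMIs in both tissues, stood at 23.1 and 180 CPM in distal and metastatic CD4 Lef1, 191 and 665 in CD4 S100a4, 41.7 and 134 in CD8 Gzmk, 35.2 and 216 in CD8 Gzma, and 189 and 860 in CD8 Lag3 cells. By mouse it was higher in metastasis in 4 and lower in 1 of 6 in CD4 Lef1 cells (exact sign-flip p = 0.188), and higher in 3 and lower in 2 of 5 in CD8 Gzmk cells (exact sign-flip p = 0.25). With 5 mice such a test cannot go under 0.0625. The pooled values carry no test, some rest on few UMIs (15 distal UMIs in CD4 Lef1, 2 in CD8 Gzma), and no direction of Lgals1 or Capg within a subset is read from them.

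With Treg and CD8 Lag3 cells left out of the T cell sum, no gene was called by edgeR among those with at least 30 UMIs (10 mice, 152 genes with an unadjusted p under 0.05). Capg then had a log2 fold change of 2.13 (adjusted p = 0.274), Ccl4 0.43 and Tnfrsf9 0.29 (adjusted p = 1 for both). Tnfrsf4 and Ccl1 had under 30 UMIs left outside Treg and CD8 Lag3 cells and were not tested there. Under the stricter filter Lgals1 had 0.69 (adjusted p = 0.371) without those cells.

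**Figure D4:**
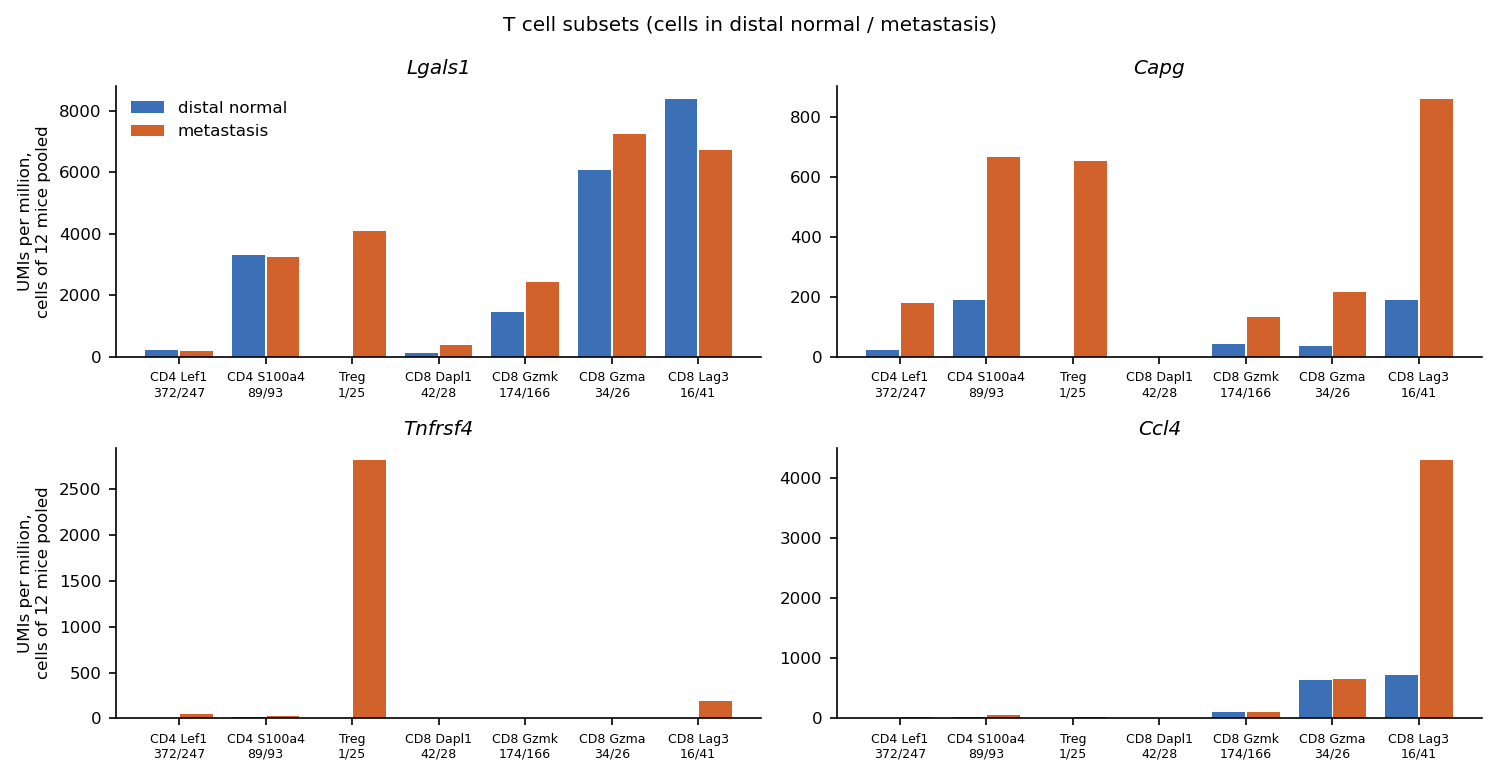
Level of 4 genes in the T cell subsets, as CPM with the cells of 12 mice pooled (no error is defined for pooled cells); under each subset stand the numbers of cells in distal normal tissue and metastasis. Tnfrsf4 lies in Treg (125 of 152 metastatic UMIs), Ccl4 in CD8 Lag3 cells, and Capg has UMIs of both tissues in 5 subsets.

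Markers of other cells were present in the T cell sums. Of 26 monocyte and macrophage markers 25 had UMIs, led by Lyz2, Ctss and Ctsb, and their summed level ranged from 0 to 1721 CPM in distal and from 292 to 1533 CPM in metastatic T cells, higher in metastasis in 8 of 12 mice. Mrc1 was at 0. The neutrophil list (16 of 16 with UMIs, led by S100a8 and S100a9) ranged from 223 to 3177 and from 137 to 2725 CPM and was higher in metastasis in 4 of 12. The dendritic cell list (11 of 14, with Siglech, Ccl22 and Flt3 at 0) ranged from 112 to 436 and from 70.3 to 817 CPM, higher in 8 of 12, and the B cell list (11 of 12, led by Ighm) from 153 to 673 and from 123 to 584 CPM, higher in 4 of 12. Of 12 epithelial and tumor markers 5 had UMIs, with all 4 keratins listed (Krt7, Krt8, Krt18 and Krt19) at 0. The levels of those 5 are not given here, so no absence of epithelial or tumor transcripts is read from the keratins. The part of such transcripts in these results was not tested. With the cells of 5 or more such myeloid or B cell UMIs left out, no gene with at least 30 UMIs was called (edgeR, 138 genes with an unadjusted p under 0.05). Tnfrsf4 then had a log2 fold change of 3.75 (adjusted p = 0.165) and Capg 1.91 (adjusted p = 0.999). This cut has the limit given for Lgals1, that it can also remove deep cells.

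The lists of T cell genes mostly did not pass gene by gene, and the median log2 fold change of all genes tested was 0.01, with 51.9% of them above 0. Among memory-like S100 and annexin genes, which mark antigen-experienced cells, 7 of 19 were tested. The list also holds genes of other families, such as Lgals1 and Capg. Of the 7, 1 passed and 6 did not, where 0.27% of all genes passed, with a median of 0.56 and all 7 above 0. The 1 that passed is Lgals1, the call already given, so this count is no separate support. S100a10 had 0.56 ± 0.22 (adjusted p = 0.35, edgeR). With at least 30 UMIs all 19 could be tested, Capg passed, again a call already given, and S100a4 had 1.11 ± 0.34 (adjusted p = 0.736). Of the regulatory T cell genes 19 of 23 had at least 30 UMIs, 3 of these passed, all higher (Tnfrsf4, Tnfrsf9 and Capg), where 0.0636% of all genes passed. Tnfrsf4 and Tnfrsf9 reached 30 UMIs only through the metastatic samples, which hold 25 Treg against 1, so this count favours a rise by construction and is no support for one. Foxp3, the lineage factor of Treg, held 13 distal and 50 metastatic UMIs with a log2 fold change of 1.34 (adjusted p = 1). Of the checkpoint and dysfunction genes 24 of 31 had at least 30 UMIs, and the 2 that passed were again Tnfrsf4 and Tnfrsf9, to which the same limit applies (0.0636% of all genes passed). Tigit, an inhibitory receptor, had 2.00 ± 0.62 (adjusted p = 0.736), Ctla4 0.86 and Pdcd1 0.65 (adjusted p = 1 for both). Lag3 itself held 5 distal and 22 metastatic UMIs, too few to be tested.

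Genes of naive, memory and recirculating T cells, which home to lymph nodes, lay on the other side. Of 29 listed, 6 were tested and none passed, 5 of the 6 below 0 and with a median of −0.19. Il7r, the receptor for the survival cytokine of resting T cells, had −0.32 ± 0.23 and was lower in metastasis in 10 of 12 mice (adjusted p = 0.716, edgeR). Ms4a4b, a membrane protein of resting T cells, had −0.25 ± 0.17 and was also lower in 10 of 12 (adjusted p = 0.694). With at least 30 UMIs, 23 of 29 were below 0, beside 53.3% of all genes, and Dapl1, Lef1, Cd27 and Klf3 had unadjusted p-values from 0.0119 to 0.0277, none of which passed. The list's summed level was 8068 to 13170 CPM in distal and 4751 to 12105 CPM in metastatic T cells, and it was lower in metastasis in 12 of 12 mice. The list holds Lef1 and Dapl1, which name deposited subsets, and CD4 Lef1 cells were the smaller share in metastasis in 9 of 12 mice. A smaller share of such cells and fewer transcripts per cell cannot be told apart here. Ccr7, Klf2 and S1pr1, genes of the homing program, had log2 fold changes of −0.33, −0.37 and −0.11 (adjusted p = 1 for each).

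The interferon-response, cytotoxic granule and glycolysis genes tested under the first filter were above 0, and none passed. They are a small part of each list, so no direction of a whole list is read from them. Of 64 type I interferon genes 5 were tested, 0 passed and all 5 were above 0, with a median of 0.47. Ly6a, the interferon-induced surface protein Sca-1, had 0.76 ± 0.28 and was higher in 9 of 12 mice (adjusted p = 0.35, edgeR), and Ifi27l2a had 0.57 ± 0.25 (adjusted p = 0.357). Isg15, Ifit3 and Irf7 were counted too thinly for the first filter and had 0.32, 0.52 and 0.58 with the looser one, while Gbp2 had −0.37 (adjusted p = 1 for each). Of 21 cytotoxic granule genes 3 were tested and 0 passed. Nkg7 had 0.49 ± 0.19, Gzma 0.54 ± 0.39 and Srgn 0.34 ± 0.23 (adjusted p from 0.35 to 0.716). Prf1, which encodes perforin, held 91 distal and 82 metastatic UMIs and had 1.88 ± 0.68 (adjusted p = 1). Of 28 glycolysis and hypoxia genes 2 were tested, Aldoa (above) and Ldha, at 0.33 ± 0.19 (adjusted p = 0.666), and the summed level of the list was higher in metastasis in 11 of 12 mice. Junb, an immediate early transcription factor gene, pointed the other way, at −0.48 ± 0.18 and lower in 11 of 12 mice (adjusted p = 0.35).

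Other lists held no called gene. Ccl5, the most abundant chemokine of T cells here, had lowest, median and highest levels of 1766, 5816 and 11109 CPM in distal and 596, 7307 and 11562 CPM in metastatic T cells, a log2 fold change of 0.12 ± 0.24 (adjusted p = 0.959, edgeR). The tissue residency and homing list had 3 genes tested, 0 passed and a median of −0.09, with Itgb7, a gut-homing integrin chain, at −0.41 ± 0.26 (adjusted p = 0.694) and Cd69, a marker of activation and residency, at −0.09 ± 0.30 (adjusted p = 0.971). Of 21 T cell receptor and identity genes 9 were tested and 0 passed, with Cd8a at 0.69 ± 0.30 (adjusted p = 0.357) and Cd3d at 0.36 ± 0.20 (adjusted p = 0.597).

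NK cells gave no called gene. Of 299 genes tested over 5 mice, 0 passed (0%), 6 had an unadjusted p under 0.05, and DESeq2 also called 0. The smallest p belonged to Nfkbia, the NF-kappa-B inhibitor, itself induced by NF-kappa-B. In mice 25, 27, 28, 30 and 36, distal NK cells had 1804, 431, 719, 604 and 774 CPM of it, and metastatic NK cells 194, 185, 121, 109 and 1079 CPM. It was lower in metastasis in 4 of 5 mice and higher in mouse 36, so the groups overlapped. The log2 fold change was −1.33 ± 0.54 (unadjusted p = 0.0239, adjusted p = 0.995, edgeR). In the control lungs Nfkbia stood at 142, 73.1 and 133 CPM, near the 4 low metastatic samples. Those 4 samples held only 2, 2, 4 and 1 UMIs of Nfkbia, and mouse 36 held 86, so the low levels are imprecise.

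Il2rb, the shared beta chain of the IL-2 and IL-15 receptors on which NK cells depend, was higher in metastasis in all 5 mice. Distal samples had 322, 1102, 599, 705 and 1347 CPM in the same order of mice, and metastatic ones 969, 1294, 1118, 1642 and 1807 CPM. The ranges overlapped, and the log2 fold change of 0.75 ± 0.33 did not pass (adjusted p = 0.995, edgeR). Emp3, a membrane protein, had 967, 1006, 1357, 1410 and 1187 CPM in distal and 969, 554, 876, 219 and 753 CPM in metastatic NK cells, with −0.81 ± 0.35 (adjusted p = 0.995). Rpl37a and the rRNA-locus transcript Gm26917 also had small p-values, as did Adamts14, which lies beside Prf1 on chromosome 10.

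No gene of the killing machinery of NK cells passed. Prf1 had 64.4, 1221, 838, 1259 and 1641 CPM in distal and 969, 1294, 1118, 1751 and 2096 CPM in metastatic NK cells, higher in 5 of 5 mice, with 0.59 ± 0.36 (adjusted p = 0.995, edgeR). The distal level of 64.4 CPM, in mouse 25, is 1 UMI. Gzmb had 1224, 2107, 1797, 2316 and 1356 CPM in distal and 485, 2310, 1480, 2517 and 1996 CPM in metastasis, a log2 fold change of −0.03 ± 0.29. Gzma ranged from 9411 to 22106 CPM in distal and from 8246 to 19959 CPM in metastatic NK cells. Over the cytotoxic granule list 10 of 21 genes were tested, 0 passed, and the median was −0.11 beside −0.01 for all genes. Of the NK receptors and adaptors 13 of 33 were tested, 0 passed and the median was −0.04, with Ncr1, the activating receptor NKp46, at 0.18 ± 0.36 and Klrg1, a receptor of terminally mature NK cells, at −0.34 ± 0.39 (adjusted p = 0.995 for both).

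Lgals1, called in T cells, stood much higher in NK cells of both tissues, at 4382, 6298, 5629, 6647 and 5421 CPM in distal and 7366, 5729, 3353, 5910 and 4079 CPM in metastatic samples. Its log2 fold change in NK cells was −0.17 ± 0.23 (adjusted p = 0.995, edgeR). The difference of the change between T and NK cells was 0.85 ± 0.35 in the 5 mice with both, with an unadjusted p of 0.023 and an adjusted p of 1.00. Of the 741 genes in that test 0 were called (0%), and 15 had an unadjusted p under 0.05. So the change of Lgals1 was not shown to differ between T and NK cells.

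CD8 Gzmk cells, named for granzyme K, gave 0 called genes of 225 over 5 mice (0%), 6 with an unadjusted p under 0.05, and 0 by DESeq2. Lgals1 had 3534, 1978, 4263, 1253 and 1165 CPM in distal samples of mice 27, 28, 30, 36 and 37, and 10234, 1789, 5405, 1957 and 1010 CPM in metastatic ones. It was higher in 3 of 5 mice, with 0.55 ± 0.27 (adjusted p = 0.918, edgeR). Arhgdib had 1646, 918, 1218, 1751 and 941 CPM in distal and 3115, 1022, 954, 2876 and 2104 CPM in metastasis (0.63 ± 0.29, adjusted p = 0.918). The other 5 genes of smallest p were the mitochondrial mt-Co1 and mt-Atp6 and the models Gm29216, Gm9794 and Gm9625, the models being uncertain because near-identical copies can share their reads.

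Antigen presentation and interferon genes in CD8 Gzmk cells did not pass in either direction. H2-K1, a classical MHC class I heavy chain, had 3147, 3815, 1096, 3520 and 4841 CPM in distal and 593, 1891, 1378, 3046 and 4293 CPM in metastatic cells, lower in 4 of 5 mice (−0.56 ± 0.31, adjusted p = 0.918, edgeR). Shisa5, an interferon-induced gene, had 2759, 1484, 244, 1674 and 3586 CPM in distal and 742, 664, 424, 2008 and 1768 CPM in metastasis (−0.66 ± 0.35, adjusted p = 0.918). Other members lay above 0. Psmb8, a subunit of the immunoproteasome, ranged from 663 to 1614 CPM in distal and from 890 to 1617 CPM in metastatic cells and was higher in 4 of 5 mice (0.49 ± 0.38), Ly6a had 0.28 ± 0.44 and Ly6e, an interferon-induced surface protein, 0.19 ± 0.29 (adjusted p = 0.918, edgeR, for each). Gzmb had 339, 212, 609, 80.4 and 2376 CPM in distal and 890, 664, 318, 579 and 1178 CPM in metastasis, with 0.90 ± 0.54 (adjusted p = 0.918). Of the naive, memory and recirculation genes 4 of 29 were tested, none passed and all 4 were below 0 (median −0.45).

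CD4 Lef1 cells gave 0 called genes of 311 over 6 mice (0%), with 22 at an unadjusted p under 0.05. DESeq2 called 2, Gm26917 and Gm42418, both transcripts of the ribosomal RNA locus on chromosome 17 and therefore uncertain. Together with AY036118 of the same locus they were also called by edgeR without mouse 36. Prdx1, a peroxide-reducing enzyme, was the one of the 6 genes of smallest p whose groups did not overlap. How many of the 311 genes tested separate in this way was not counted, so nothing is read from it. Its lowest, median and highest levels were 201, 271 and 369 CPM in distal and 492, 581 and 945 CPM in metastatic cells, higher in 6 of 6 mice, with 1.21 ± 0.38 (adjusted p = 0.225, edgeR). Control mice 2 and 3 had 464 and 336 CPM, and control mouse 1 had more than either, so the control samples reached into the metastatic range. AW112010, annotated as a long non-coding RNA, had 402, 600 and 1003 CPM in distal and 836, 1136 and 1596 CPM in metastatic cells, also higher in 6 of 6 (0.94 ± 0.29, adjusted p = 0.225). The mitochondrial mt-Co1, another of the 6, was likewise higher in 6 of 6 mice (0.70 ± 0.21, adjusted p = 0.225, edgeR). The share of mitochondrial UMIs was higher in metastasis in 5 of 6 mice (2.75% to 4.87% in distal and 3.63% to 4.96% in metastatic cells), and its part in these results was not tested.

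No homing gene of CD4 Lef1 cells passed. Ccr7, the lymph node homing receptor, had 0.07 ± 0.39 (adjusted p = 0.998, edgeR). Of the naive, memory and recirculation list 12 of 29 were tested, 0 passed and the median was −0.09. Junb had 402, 1548 and 4047 CPM in distal and 438, 1021 and 2109 CPM in metastasis (−0.63 ± 0.27, lower in 5 of 6, adjusted p = 0.475). Ccnd2, a G1 cyclin, had 430, 503 and 804 CPM in distal and 712, 883 and 1163 CPM in metastasis (0.75 ± 0.32, higher in 5 of 6, adjusted p = 0.475). Lgals1 was low in these cells, at 24.7 to 254 CPM in distal and 54.7 to 570 CPM in metastatic samples, higher in 3 of 6 mice. The neutrophil list was lower in metastasis in 5 of 6 mice (222 to 3896 against 193 to 1456 CPM), and its part in these results was not tested.

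NK Ncr1 cells made up nearly all NK cells (190 of 195 distal and 123 of 137 metastatic cells of the mice used), so they repeat the NK values more than they add to them. Of 291 genes 0 were called by edgeR or DESeq2 (0%), and 4 had an unadjusted p under 0.05. Nfkbia had 1804, 440, 706, 604 and 782 CPM in distal and 204, 185, 154, 126 and 938 CPM in metastasis (−1.24 ± 0.49, adjusted p = 0.989, edgeR). The metastatic levels rest on 2, 2, 4, 1 and 64 UMIs. Il2rb had 322, 930, 623, 705 and 1319 CPM in distal and 918, 1294, 1347, 1010 and 1787 CPM in metastasis (0.75 ± 0.35, adjusted p = 0.989).

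The difference of the change between CD8 Gzmk and CD4 Lef1 cells was tested over 409 genes in 5 mice, and 0 were called (0%), with 13 at an unadjusted p under 0.05. The smallest p belonged to AW112010, at −1.40 ± 0.46, higher in metastasis in CD4 Lef1 relative to CD8 Gzmk cells (adjusted p = 0.997, edgeR). Summing T and NK cells together, an alternative added after seeing the data, let 13 mice enter. Of 537 genes 0 were called (0%), with 39 at an unadjusted p under 0.05. Of the 9114 with at least 30 UMIs 3 were called (0.0329%), Tnfrsf4 and Ccl1, with the limit given above, and Capg.

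**Figure D5:**
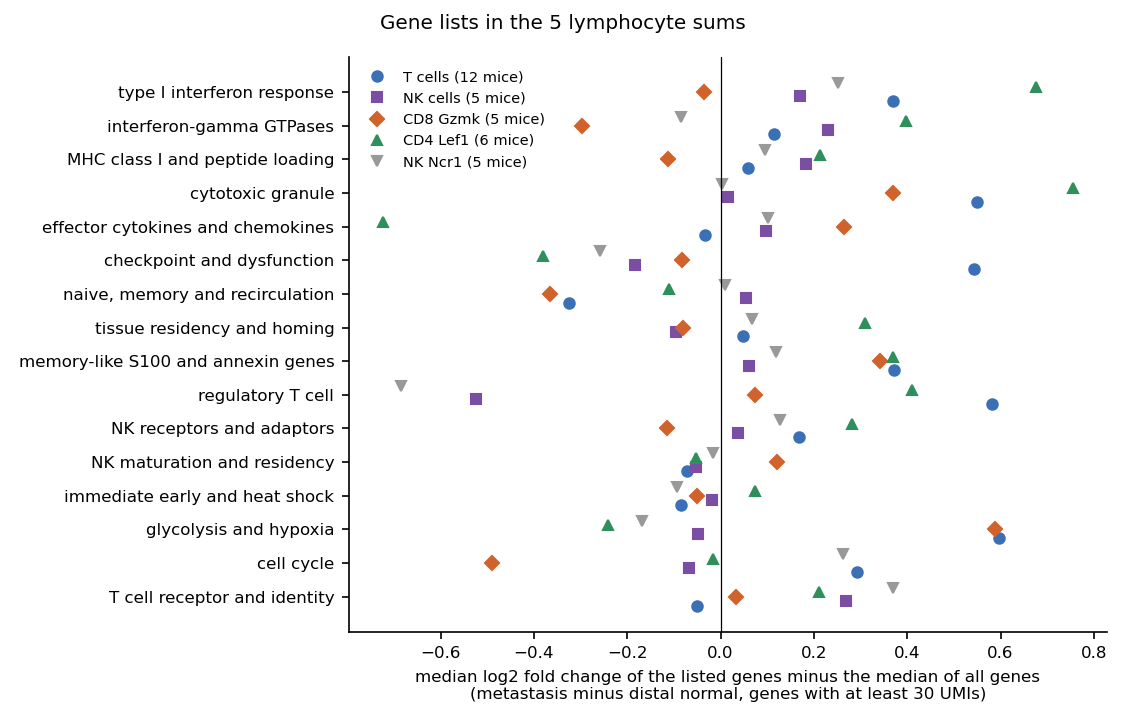
Median log2 fold change (metastasis minus distal normal) of 16 gene lists, less the median of all genes, among genes with at least 30 UMIs in each of the 5 lymphocyte sums (12, 5, 5, 6 and 5 mice). Points carry no test; in T cells the naive, memory and recirculation list lies at −0.32, and the regulatory T cell list at 0.58 holds genes that reached 30 UMIs only through metastatic samples.

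Set beside each other, the lists did not point the same way in all 5 sums. The memory-like S100 and annexin list had medians above that of all genes in T cells, CD8 Gzmk and CD4 Lef1 cells (by 0.37, 0.34 and 0.37 on the log2 scale with at least 30 UMIs), and by 0.06 in NK cells. The glycolysis list lay above in T cells (0.60) and CD8 Gzmk cells (0.59) and below in CD4 Lef1 cells (−0.24). Differences between the sums were not tested list by list.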

How the data were processed

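The authors sequenced single sorted cells in plates of 384 wells with UMIs, converted reads with bcl2fastq 2.15.0.4 per the submitters' processing notes, aligned them with HISAT to mm10, left out multi-mapped reads and counted UMIs per exon-assigned gene. The values the authors deposited are unnormalized UMI counts, one table a plate. Cells under 500 UMIs were discarded by the authors, and the deposited annotation, from MetaCell clusters, was used unchanged. Doublets were not called here. Of 148 plates, 66 were used (29 metastasis, 28 distal normal, 9 control lung) and 82, from other sorts and lungs, were not. The 92 spike-in entries held 0 UMIs. No 2 wells among the 10249 with at least 500 UMIs had identical counts.

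UMI counts were summed per mouse and tissue. Tests used edgeR 4.0.16 (TMM, filterByExpr, quasi-likelihood with the mouse as a block, Benjamini-Hochberg over all genes tested), with DESeq2 1.42.0 as an alternative, and were tested on simulated data first. SE is the size of the log2 fold change divided by the square root of F. CPM values are not TMM-scaled. The pairing comes from the animal in the labels; deviations from the tissue mean correlated between both tissues of a mouse with a median of 0.29 in T cells (−0.07 to 0.65 over 12 mice) against −0.06 between different mice. The 2 tissues are samples of one lung, so n counts mice. SE covers these samples only. Coordinates are from GENCODE M21, of the same build.

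Genes were named by rule: called genes (up to 12 rises and 8 falls, the same way in most pairs) and, with fewer than 5 called, 6 of smallest p that did not pass; 24 fixed genes where tested, some of which are not reported here; and 2 to 4 of smallest p in each of 16 lists; genes of the looser filter were named after it was added. Members and lists were chosen with earlier results of these data known. Alternatives were no block, DESeq2 size factors or test, no filter, 5 or 20 cells, cells of at least 1000 UMIs, cells without other cells' markers, mice whose tissues share sequencing batches (9 of 13), Treg and CD8 Lag3 cells left out, and each mouse left out. With no block, mice without enough cells in both tissues also entered. Added after seeing the data were the filter of at least 30 UMIs, ambiguous gene models left out, and T and NK cells summed together.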

Additional observations from a re-analysis of the deposited data

Results flagged for a closer look

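Over the 42 groups of 5 or 6 mice whose CPM values are given one by one or as a range for the NK, NK Ncr1, CD8 Gzmk and CD4 Lef1 sums, 6 held a sample that stood apart from the others by Dixon's 95% limit; chance alone gives about 1 in 20 groups, and the NK and NK Ncr1 values are nearly the same cells.

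Nfkbia in distal NK cells was 1804 CPM in mouse 25 and 431 to 774 CPM in the other 4. In metastatic NK cells it was 1079 CPM in mouse 36 and 109 to 194 CPM in the others. Those others held 1 to 4 UMIs of Nfkbia each, so how far mouse 36 stood apart is imprecise. The NK Ncr1 cells gave the same samples, with 1804 CPM in mouse 25 (others 440 to 782) and 938 CPM in mouse 36 (others 126 to 204). Mouse 36 had the deepest NK sums of both tissues, and the part of depth in this value was not tested.

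Gzmb in distal CD8 Gzmk cells was 2376 CPM in mouse 37 and 80.4 to 609 CPM in the other 4. Prdx1 in metastatic CD4 Lef1 cells was 945 CPM in mouse 31 and 492 to 653 CPM in the other 5, all above the distal samples.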

How the results depend on the processing

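In T cells 1 gene was called, and the number was 0 with no replicate block (16 genes at an unadjusted p under 0.05), 0 with at least 20 cells, 0 with cells of at least 1000 UMIs (3 mice), 0 without cells carrying other cells' markers, 0 without Treg and CD8 Lag3 cells, 3 with DESeq2 (Lgals1, Myl12a and Gm8203), and 5 with no filter or with at least 30 UMIs; leaving out each mouse gave 0 to 1. DESeq2 size factors, at least 5 cells, 9 mice with both tissues in the same batches, and leaving out ambiguous gene models each kept 1, Lgals1. Without the block, Lgals1 had 0.74 (adjusted p = 0.994, edgeR). That alternative also dropped the need for both tissues of a mouse, so 14 mice entered in place of 12. The part of the block alone was therefore not tested. Over its alternatives outside leaving out mice, Lgals1 lay above 0 throughout. Among T cell genes with at least 30 UMIs (alternatives all added after seeing the data), the 5 calls became 16 with no replicate block, 8 with DESeq2 size factors, 2 with cells of at least 1000 UMIs, 3 with at least 20 cells, 0 without Treg and CD8 Lag3 cells, 0 without cells carrying other cells' markers, and 2 to 9 over the mice left out, 2 being without mouse 26 and 9 without mouse 23. There Ccl4 reversed to −1.15 with cells of at least 1000 UMIs (adjusted p = 1.00, edgeR, 3 mice). CD4 Lef1 cells gave 2 calls with DESeq2 and 0 to 3 over the mice left out, 3 being without mouse 36. NK, NK Ncr1 and CD8 Gzmk sums gave 0 throughout, as did the difference between T and NK cells. Leaving out the block, with the mice this let in, changed no other call. The causes were not tested, beyond the changed numbers of mice or genes in some alternatives. Of the values of named genes, 24 of 701 in T cells, 57 of 460 in NK, 75 of 457 in NK Ncr1, 31 of 366 in CD8 Gzmk and 27 of 415 in CD4 Lef1 cells had the other sign, none of them a called value. Cells of at least 1000 UMIs left fewer than 2 mice for all sums but T cells, and at least 20 cells did so for CD8 Gzmk, so these were not run. Sums held as few as 6742 UMIs, which limits the precision of genes of low count.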

Other observations

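Some chemokine and neuropeptide genes outside the naming rule are given here because their values stood out once seen. Ccl3, a macrophage-attracting chemokine, had 258, 239, 240, 151 and 133 CPM in the distal NK cells of mice 25, 27, 28, 30 and 36 and 291, 739, 604, 1423 and 289 CPM in the metastatic ones. The groups did not overlap, but Ccl3 was picked for its values, and how many NK genes separate in this way was not counted. The highest value, in mouse 30, rests on 13 UMIs, and the tissues of that mouse were sequenced in different batches. Ccl3 did not pass the first filter, under which 0% of NK genes were called. Among genes with at least 30 UMIs it had a log2 fold change of 1.36 (adjusted p = 1, edgeR). In T cells Ccl3 held 11 distal and 87 metastatic UMIs, with 2.71 (adjusted p = 0.136, edgeR), and 51 of the metastatic UMIs were in 1 CD8 Lag3 cell of mouse 26. It was called with no block, with DESeq2 size factors, and without mouse 23, 27 or 36, and not in the other alternatives run. In T cells Ccl3 reached 30 UMIs only through the metastatic samples, so the limit given for Tnfrsf4 applies. Its adjusted p and calls there are a description and no support for a rise.

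Penk, which encodes the precursor of enkephalin peptides, held 7 distal and 152 metastatic UMIs in T cells. Of the latter 128 were in Treg, 73 of them in 1 cell of mouse 36. Its log2 fold change was 3.27 (adjusted p = 0.216, edgeR). It was called with no block, with cells of at least 1000 UMIs, with at least 20 cells, and without mouse 23 or 34. It was not called in the other alternatives run. Penk passed the looser filter only through the metastatic samples, so the limit given for Tnfrsf4 applies to it too. Its adjusted p and calls are a description and no support for a rise.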
